A study of Mus musculus with 10 samples.

Results

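The genes described here are 40 interferon-induced genes, taken by gene symbol from the 54532 genes of 1 deposited expression table of mouse lung, and all 40 symbols were found in it. Interferon is a group of secreted proteins by which cells warn each other of viruses and other microbes. The lungs came from wild-type C57/BL6 pups, male or female according to the methods, and the labels give no sex, litter, batch or date. In the IncPBF group, a needle puncture at postnatal day 7 (P7) joined the abdominal aorta to the inferior vena cava, which sends arterial blood back to the right heart and increases pulmonary blood flow. The sham group had anesthesia and the abdominal operation without the puncture. Lungs were taken at P14, and 5 lungs of each group were profiled by bulk RNA-sequencing of the whole tissue. The comparison asked how gene expression in the postnatal lung differs when pulmonary blood flow is increased.

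Type I interferons bind a receptor made of Ifnar1 and Ifnar2, and the receptor kinases then activate a complex that holds Stat2 and Irf9, which enters the nucleus and binds an element in the promoters of its target genes. Interferon gamma binds another receptor, made of Ifngr1 and Ifngr2, and acts through another promoter element. Many target genes encode antiviral proteins that sense foreign nucleic acid, block its translation or mark infected compartments, and a low level of them is kept in healthy tissue by tonic signalling. The 40 genes were ordered by role into signal transducers and feedback (4 genes), nucleic acid sensors (4), the IFIT family (4), the OAS family with the kinase PKR (6), the ISG15 system (2), other antiviral effectors (11), the IFI27 family and secreted products (3), and interferon-inducible GTPases (6).

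RefSeq promoter windows on GRCm38.p6, from 250 bases before to 50 bases after the start of transcription, were found for 29 of the 40 genes. The letters GAAA, then 2 bases of any kind, then GAAA again, searched on both strands (so also TTTC, 2 bases of any kind and TTTC), are the core of the element that Stat2 and Irf9 complexes and other interferon regulatory factors bind. They stood in the windows of 18 of the 29 members (62.1%), against 3.99% of the windows of all 27025 genes in the RefSeq table and 42.3% of 52 further interferon-induced genes. The letters TTCNNNGAA, the core of that other element, which read the same on both strands, stood in 7 of the 29 windows (24.1%) and in 9.55% of all windows. The sequences below are those of the genes on which the expression results turn, each 5′ to 3′ on the gene's strand and ending 1 base before the start of transcription, with every match of the first motif, on either strand, in capitals.
Ifit1, chr19:34640689-34640888, plus strand: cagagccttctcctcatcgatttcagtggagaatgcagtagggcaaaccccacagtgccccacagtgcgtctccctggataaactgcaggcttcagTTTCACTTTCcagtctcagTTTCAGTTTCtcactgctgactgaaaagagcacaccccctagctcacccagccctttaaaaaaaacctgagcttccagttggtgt
Ifit3, chr19:34583329-34583528, plus strand: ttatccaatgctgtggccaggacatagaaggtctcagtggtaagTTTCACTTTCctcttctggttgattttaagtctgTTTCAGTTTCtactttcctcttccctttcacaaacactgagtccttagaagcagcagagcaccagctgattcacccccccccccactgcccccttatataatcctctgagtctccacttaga
Ifit3b, chr19:34607757-34607956, plus strand: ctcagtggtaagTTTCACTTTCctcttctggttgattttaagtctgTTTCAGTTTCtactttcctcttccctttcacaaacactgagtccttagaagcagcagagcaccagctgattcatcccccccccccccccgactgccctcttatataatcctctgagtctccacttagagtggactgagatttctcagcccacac
Rsad2, chr12:26456453-26456602, minus strand: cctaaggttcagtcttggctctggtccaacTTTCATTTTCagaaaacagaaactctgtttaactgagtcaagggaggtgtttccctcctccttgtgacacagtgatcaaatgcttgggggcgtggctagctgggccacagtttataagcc
Isg15, chr4:156200819-156200918, minus strand: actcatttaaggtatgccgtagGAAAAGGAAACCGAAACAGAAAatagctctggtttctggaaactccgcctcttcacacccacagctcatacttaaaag
Gbp2, chr3:142620563-142620662, plus strand: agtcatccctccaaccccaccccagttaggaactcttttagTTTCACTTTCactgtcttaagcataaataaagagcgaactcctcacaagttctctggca
Igtp, chr11:58199456-58199555, plus strand: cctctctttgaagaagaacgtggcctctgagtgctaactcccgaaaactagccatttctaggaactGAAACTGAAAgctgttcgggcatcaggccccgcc
Ifit1, Ifit3 and Ifit3b each had 2 separate matches. With -1 as the base before the start, these began at -104 and -85 in Ifit1, at -156 and -122 in Ifit3 and at -188 and -154 in Ifit3b. The windows of Ifit3 and Ifit3b were identical at 86.0% of their 300 bases. In Isg15, 3 matches overlapped and formed 1 unbroken run of capitals. Rsad2, Gbp2 and Igtp had 1 match each. All 5 GTPases with a window held the letters, as did 3 of 4 IFIT genes and 3 of 7 other effectors. A match is a description of the letters, and a window without one says only that these letters are not in it.

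Expression is given as FPKM, the fragments of a gene scaled to gene length and to library size, and the deposited values gave back whole fragment numbers in 100% of cases (tolerance 0.02 of a fragment). Totals on genes ran from 16103423 to 20318525 fragments over the IncPBF lungs and from 18171494 to 19400575 over the sham lungs. A member had 15 to 2310 fragments in a lung. Defining genes of alveolar, airway and endothelial cells were present, but the airway secretory genes varied widely. Their summed FPKM ran from 141 to 12530 over the sham lungs and from 5018 to 10660 over the IncPBF lungs. The 5 IncPBF lungs were not alike in their sex-linked genes: Xist, transcribed from the inactive X chromosome of female cells, was at 0.0144 FPKM in IncPBF lung 1, at 52.4 to 66.5 FPKM in IncPBF lungs 2 to 5 and at no more than 0.0770 FPKM in the sham lungs. Ddx3y, on the Y chromosome, was at 18.6 FPKM in IncPBF lung 1, at no more than 0.00926 FPKM in IncPBF lungs 2 to 5 and at 21.8 to 24.6 FPKM in the sham lungs. IncPBF lung 1 was also the lung in which the members stood apart, so counts are given with and without it. Without it, every IncPBF lung had high Xist and every sham lung low Xist, so that the operation and the Xist level cannot be told apart in those counts. With all lungs, only IncPBF lung 1 separates the operation from the Xist level. The same limit therefore holds in large part for the counts with it.

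Across the members, 9 genes were lower and 1 gene, the GTPase Iigp1, was higher in the IncPBF group, and the others did not pass the test with all lungs. Of the 40 genes, 37 had a mean of at least 0.5 FPKM and were tested with all 15388 such genes by limma on log2(FPKM + 0.1), which understates the change of genes at low FPKM. The log2 difference, IncPBF minus sham, was below 0 in 31 of the 37 members, against 47.9% of all genes tested. At an adjusted p of 0.05 over all genes, 9 members were lower (24.3%, where 16.2% of all genes tested were lower) and 1 member was higher (2.70%, where 16.1% of all genes were higher). The median log2 difference of the 37 members was -0.27, and that of all genes tested was 0.01. When IncPBF lung 1 was left out, 24 of the 37 members were lower (64.9%, against 13.9% of all genes) and 1 was higher (against 14% of all genes), with a median of -0.34. The difference was then below 0 in 34 members, against 48.3% of all genes. All 9 genes called lower with every lung were also called lower without IncPBF lung 1. With the log2 Xist level as a covariate, a fit in which the group difference rests on IncPBF lung 1 against the sham lungs, 0 members were lower (2.68% of all genes) and 7 were higher (2.13% of all genes). In that fit 11 members had a difference below 0, against 47.8% of all genes. Bulk RNA cannot tell fewer cells of a type from less RNA per cell.

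**Figure D1:**
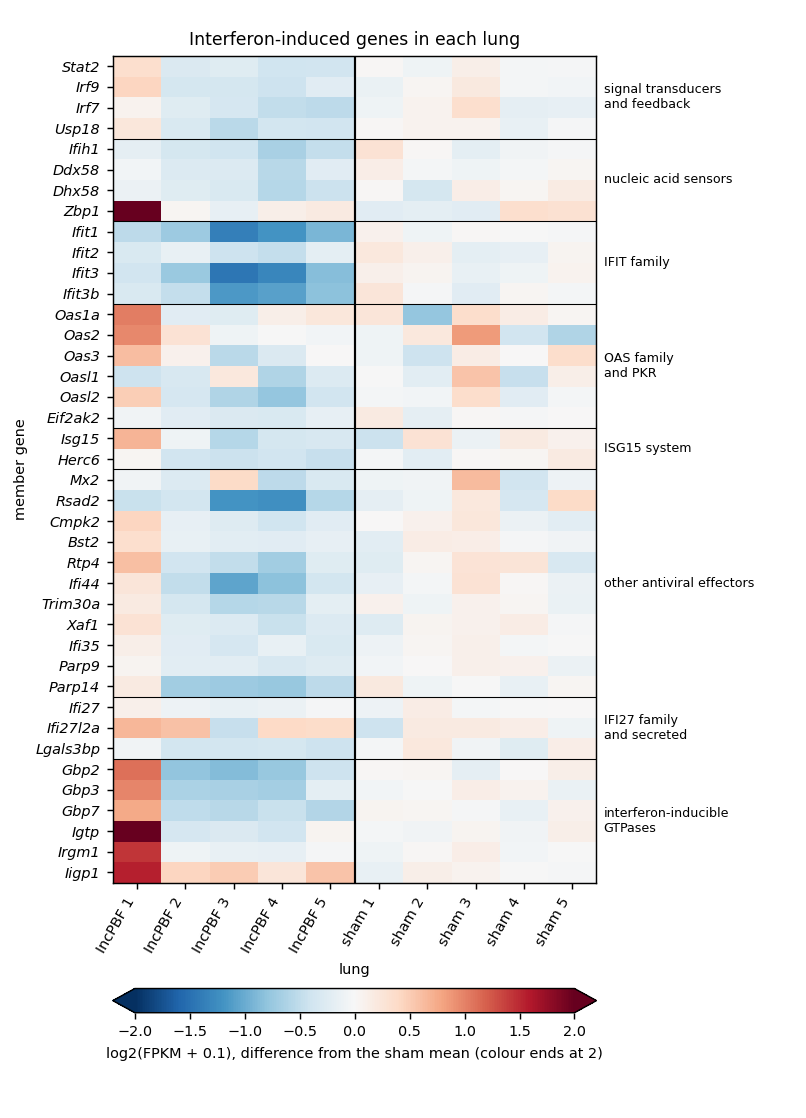
Heat map of the 40 interferon-induced genes (rows, by role) in the 5 IncPBF and 5 sham lungs (columns), coloured by log2(FPKM + 0.1) minus the mean of the sham lungs. IncPBF lungs 2 to 5 are mostly blue (lower), IncPBF lung 1 is red in the GTPases and Zbp1 and blue in the IFIT family, and the sham lungs are pale.

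**Figure D2:**
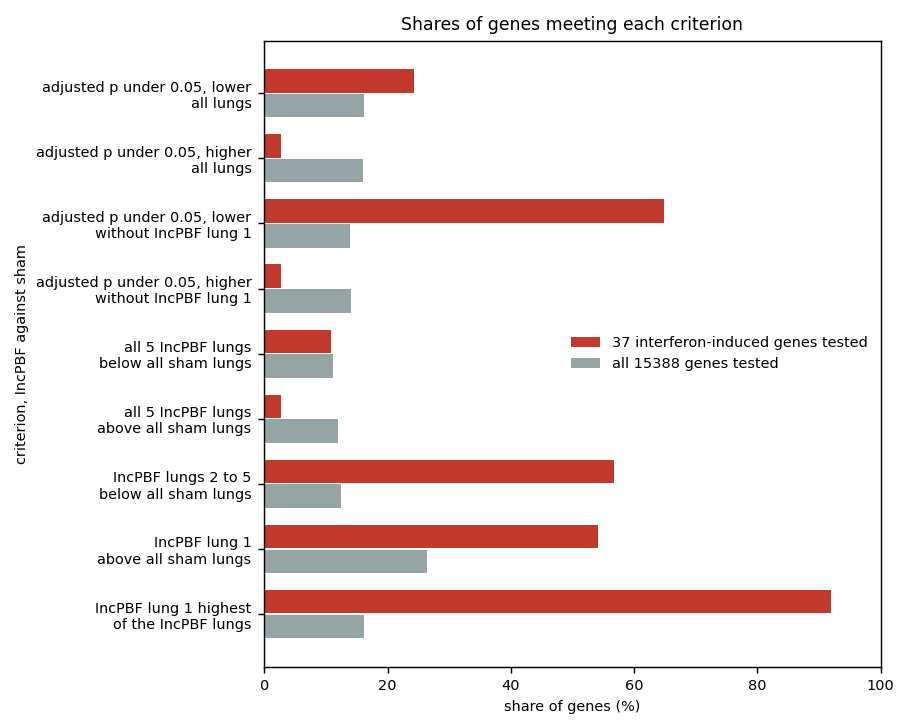
Bars starting at 0 show the share of the 37 members tested (red) and of all 15388 genes tested (grey) that met each criterion in percent. The shares of lower members without IncPBF lung 1 (64.9%) and of members highest in IncPBF lung 1 among the IncPBF lungs (91.9%) stand far above the grey bars, while the shares without overlap of all lungs do not.

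The IFIT family was lower in the IncPBF group in all 4 members. IFIT proteins bind viral RNA and block its translation, and their genes lie side by side on chromosome 19, from Ifit2 at 34550694 through Ifit3 and Ifit3b to the end of Ifit1 at 34650009 (GRCm38). Ifit1 was at 3.97, 3.44, 2.16, 2.47 and 3.01 FPKM in IncPBF lungs 1 to 5 and at 6.1, 5.44, 5.84, 5.75 and 5.67 FPKM in sham lungs 1 to 5. All 5 IncPBF lungs lay below all sham lungs, and the sham lungs were close to each other. The mean was 3.01 ± 0.729 FPKM against 5.76 ± 0.245 FPKM in sham (SD, n = 5), and Ifit1 fell by 47.8%. Its log2 difference was -0.95 ± 0.14 (SE), with a limma adjusted p of 0.000585. Ifit3 was at 11.7, 9.11, 5.55, 6.11 and 8.39 FPKM in the IncPBF lungs and at 16.4, 15.8, 13.8, 14.5 and 16.1 FPKM in the sham lungs, again without overlap. Ifit3 fell by 46.6% and its log2 difference was -0.95 ± 0.17 (limma adjusted p = 0.00203). Ifit3b, its near copy, was at 2.95, 2.61, 1.6, 1.68 and 2.05 FPKM in the IncPBF lungs and at 4.37, 3.64, 3.13, 3.79 and 3.56 FPKM in the sham lungs. These groups did not overlap either, and the log2 difference was -0.77 ± 0.16 (limma adjusted p = 0.00466). Of the stretches of 50 bases in Ifit3, 51.2% also occur in Ifit3b, so how fragments were divided between them is uncertain. Ifit2 was at 7.98, 8.87, 7.36, 7.02 and 8.6 FPKM in the IncPBF lungs and at 11.3, 10.6, 8.55, 8.81 and 10.2 FPKM in the sham lungs. The groups of Ifit2 overlapped, since IncPBF lungs 2 and 5 reached the lowest sham lungs, and its log2 difference of -0.31 ± 0.09 was smaller (limma adjusted p = 0.0274).

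In this family IncPBF lung 1 was also raised against most of its group, but it did not reach the sham lungs. Its median ratio to the mean of IncPBF lungs 2 to 5 was 1.46 over the 4 genes, against 1.53 over the 37 members. IncPBF lung 1 held the highest IncPBF value of Ifit1, Ifit3 and Ifit3b, but all 4 IFIT genes in it lay below all 5 sham lungs. Of the 37 members, 5 were below all sham lungs in IncPBF lung 1 (13.5%, against 25.4% of all genes tested), and these were the 4 IFIT genes and Rsad2. IncPBF lungs 3 and 4 had the lowest values of Ifit1, Ifit3 and Ifit3b.

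Rsad2 encodes viperin, an enzyme that makes a chain terminator of viral RNA synthesis, and lies on chromosome 12 beside Cmpk2, whose enzyme supplies its substrate. Rsad2 was at 1.13, 1.21, 0.637, 0.615 and 1.03 FPKM in the IncPBF lungs and at 1.39, 1.48, 1.84, 1.23 and 2.09 FPKM in the sham lungs. No IncPBF lung reached a sham lung, although the highest IncPBF lung and the lowest sham lung were close. The mean was 0.925 ± 0.28 FPKM against 1.61 ± 0.352 FPKM (SD, n = 5), with a log2 difference of -0.76 ± 0.21 and a limma adjusted p of 0.0195. Cmpk2 was at 6.11 ± 1.55 FPKM against 6.57 ± 0.81 FPKM in sham and did not pass the test (log2 difference -0.12 ± 0.14, limma adjusted p = 0.546). In all, 4 members had every IncPBF lung below every sham lung (10.8%, against 11.2% of all genes tested): Ifit1, Ifit3, Ifit3b and Rsad2. Groups without overlap always give an exact two-sided permutation p of 0.00794, the smallest that 252 assignments of the lungs allow. That p therefore adds nothing to the lack of overlap by which these 4 genes were picked.

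**Figure D3:**
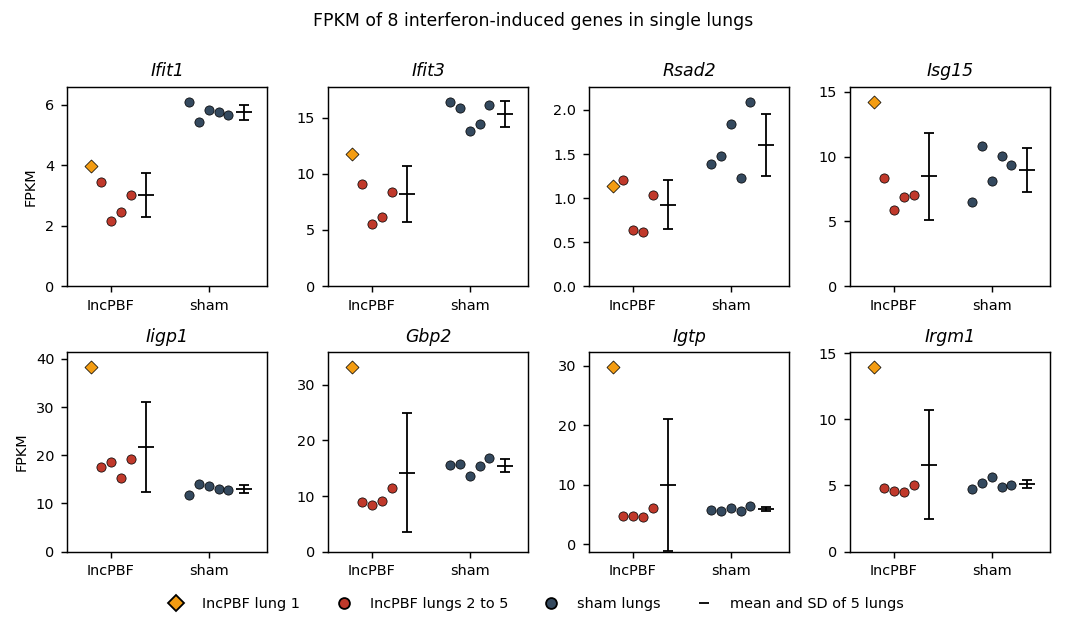
FPKM (vertical axes) of 8 genes in each IncPBF and sham lung, with IncPBF lung 1 as an orange diamond, the other IncPBF lungs in red, the sham lungs in dark blue, and the mean with its SD beside each group. Ifit1, Ifit3 and Rsad2 are lower in every IncPBF lung, Iigp1 is higher in every IncPBF lung, and Gbp2, Igtp, Irgm1 and Isg15 are highest in IncPBF lung 1.

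The nucleic acid sensors were lower in 2 of 4 genes. Ifih1 encodes MDA5 and Ddx58 encodes RIG-I, receptors of double-stranded viral RNA in the cytoplasm. Ifih1 was at 3.84, 3.39, 3.26, 2.72 and 3.08 FPKM in the IncPBF lungs and at 5.3, 4.4, 3.77, 4.11 and 4.25 FPKM in the sham lungs. The groups met only where IncPBF lung 1 exceeded sham lung 3, and the log2 difference was -0.41 ± 0.11 (limma adjusted p = 0.0132). Ddx58 was at 9.21, 7.89, 7.84, 6.45 and 8.18 FPKM in the IncPBF lungs and at 10.4, 9.26, 8.96, 9.31 and 9.78 FPKM in the sham lungs, with IncPBF lung 1 again inside the sham range. Its log2 difference was -0.28 ± 0.09 (limma adjusted p = 0.0298). Dhx58, the regulatory relative of these receptors, was at 1.03 ± 0.136 FPKM against 1.32 ± 0.186 FPKM and missed the threshold (limma adjusted p = 0.0889). Zbp1, a sensor of left-handed nucleic acid that can start cell death, was at 2.26, 0.514, 0.429, 0.542 and 0.573 FPKM in the IncPBF lungs and at 0.41, 0.421, 0.406, 0.652 and 0.635 FPKM in the sham lungs. The level in IncPBF lung 1 was 4.39 times the mean of the other IncPBF lungs, which lay within the sham range, and Zbp1 did not pass the test (limma adjusted p = 0.422).

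Of the signal transducers and feedback genes, 0 of 4 were called with all lungs and 4 of 4 were lower without IncPBF lung 1. Stat2 and Irf9 form the complex that type I interferon activates, Irf7 amplifies interferon production, and Usp18 removes ISG15 from proteins and damps the receptor. Stat2 was at 9.37, 6.02, 6.29, 5.63 and 5.65 FPKM in the IncPBF lungs and at 7.58, 6.98, 8.02, 7.26 and 7.32 FPKM in the sham lungs. The value in IncPBF lung 1 was above all sham lungs, and those in the other 4 IncPBF lungs were below all of them. Irf9 had the same order of lungs, at 12.99 FPKM in IncPBF lung 1, 7.23 to 8.21 FPKM in IncPBF lungs 2 to 5 and 8.78 to 11.1 FPKM in the sham lungs. Usp18 was at 4.73 FPKM in IncPBF lung 1, at 2.72 to 3.21 FPKM in IncPBF lungs 2 to 5 and at 3.62 to 4.23 FPKM in the sham lungs. Their log2 differences with all lungs were between -0.18 (Irf9) and -0.31 (Irf7), with limma adjusted p of 0.0964 to 0.361. Leaving out IncPBF lung 1 put them between -0.33 (Stat2) and -0.40 (Usp18), with limma adjusted p of 0.00404 to 0.03.

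Enzymes of the OAS family make the short adenylate chains that switch on RNA decay. Eif2ak2 encodes PKR, which stops translation when it binds double-stranded RNA. None of the 4 tested genes of this group passed the test with all lungs. Eif2ak2 came closest, at 5.38 ± 0.378 FPKM against 6.25 ± 0.572 FPKM, a log2 difference of -0.21 ± 0.07 and a limma adjusted p of 0.0521. Oasl2 was at 6.85 FPKM in IncPBF lung 1 and at 2.78 to 3.82 FPKM in the other IncPBF lungs, below the sham range of 4.14 to 6.23 FPKM. In the fit without IncPBF lung 1 both Eif2ak2 (log2 difference -0.25, limma adjusted p = 0.0364) and Oasl2 (-0.52, adjusted p = 0.0134) were lower. The 3 largest spreads among the sham lungs were also in this family. Oas2, at 0.338, 0.441, 0.74, 0.259 and 0.206 FPKM, had an SD of 0.57 on the log2 scale in the sham lungs, with sham lung 3 highest. Oas1a, at 1.24, 0.563, 1.35, 1.17 and 1.07 FPKM in the sham lungs and 2.22, 0.878, 0.861, 1.14 and 1.23 FPKM in the IncPBF lungs, had a sham SD of 0.45, with sham lung 2 lowest. Oasl1 was at 0.555, 0.468, 0.876, 0.381 and 0.617 FPKM in the sham lungs and 0.397, 0.43, 0.664, 0.333 and 0.443 FPKM in the IncPBF lungs, with a sham SD of 0.38 and sham lung 3 again highest. For comparison, the median sham SD was 0.14 over the 37 members and 0.17 over all genes tested. Oas1a shares 57.6% of its stretches of 50 bases with Oas1g, so its fragments are uncertain.

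Oas2, Oas3 and Mx2 lay under the filter, and for these the exact two-sided permutation test of the mean FPKM was used. Oas2 was at 0.802, 0.468, 0.341, 0.365 and 0.346 FPKM in the IncPBF lungs, with IncPBF lung 1 the highest of all 10 lungs (exact p = 0.556). Oas3 was at 0.23 ± 0.104 FPKM against 0.227 ± 0.0615 FPKM in sham (exact p = 0.968). Mx2, an antiviral GTPase related to dynamin, was at 0.436 ± 0.136 FPKM against 0.501 ± 0.178 FPKM (exact p = 0.54). No difference was detectable in these 3 genes at this depth and this spread between lungs.

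Isg15, a ubiquitin-like protein joined to other proteins during the interferon response, was at 14.2, 8.33, 5.87, 6.9 and 7.01 FPKM in the IncPBF lungs and at 6.49, 10.8, 8.08, 10.03 and 9.34 FPKM in the sham lungs. In IncPBF lung 1 it was the highest of all 10 lungs, and the other 4 IncPBF lungs lay within or below the sham range. Isg15 did not pass the test with all lungs (log2 difference -0.13 ± 0.22, limma adjusted p = 0.684) or without IncPBF lung 1 (-0.33, adjusted p = 0.119). Herc6, the mouse ligase for ISG15, was at 0.776 ± 0.137 FPKM against 0.989 ± 0.106 FPKM (limma adjusted p = 0.122).

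Among the other antiviral effectors, 2 of 10 tested genes were lower with all lungs (Rsad2 and Parp14) and 8 of 10 without IncPBF lung 1. Parp14 encodes an ADP-ribosyltransferase induced with its partner Parp9. Parp14 was at 9.36, 5.09, 4.94, 4.83 and 5.73 FPKM in the IncPBF lungs and at 9.51, 7.77, 8.23, 7.42 and 8.53 FPKM in the sham lungs. IncPBF lung 1 stood at the level of the sham lungs, and IncPBF lungs 2 to 5 lay below all of them. The log2 difference was -0.50 ± 0.16 with all lungs (limma adjusted p = 0.0347) and -0.67 without IncPBF lung 1 (adjusted p = 0.000418). Ifi44, Trim30a, Rtp4, Xaf1, Ifi35 and Parp9 were the 6 genes called only when IncPBF lung 1 was left out, with log2 differences from -0.68 (Ifi44) to -0.25 (Parp9) and limma adjusted p of 0.00777 to 0.0397. Rtp4, which escorts receptors to the cell surface, was at 12.6 FPKM in IncPBF lung 1, 5.11 to 6.98 FPKM in IncPBF lungs 2 to 5 and 6.63 to 10.1 FPKM in the sham lungs. Cmpk2 and Bst2, which encodes the virus tether tetherin, were not called in either fit. Bst2, the most abundant member per length, was at 61.9 ± 11.3 FPKM against 64.9 ± 6.64 FPKM, with 82.03 FPKM in IncPBF lung 1.

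In the IFI27 family and secreted products, 1 of 3 genes was called. Lgals3bp encodes a secreted glycoprotein that binds galectins. Lgals3bp was at 22.1, 18.03, 17.9, 18.1 and 17.4 FPKM in the IncPBF lungs and at 22.7, 26.96, 22.1, 19.6 and 25.5 FPKM in the sham lungs. IncPBF lungs 2 to 5 lay below all sham lungs and IncPBF lung 1 stood within the sham range. The log2 difference was -0.32 ± 0.09 (limma adjusted p = 0.0229). Ifi27, a small mitochondrial membrane protein, was at 49.97 ± 3.64 FPKM against 52.0 ± 3.37 FPKM (log2 difference -0.06 ± 0.06, limma adjusted p = 0.517), and its direction changed with the scaling. Ifi27l2a was at 7.29 ± 1.93 FPKM against 5.72 ± 0.956 FPKM (log2 difference 0.31 ± 0.20, limma adjusted p = 0.258). IncPBF lung 3 was the lowest IncPBF lung of Ifi27l2a at 4.09 FPKM, where the other 4 had 7.28 to 9.05 FPKM, and without it the gene was called higher (0.50, limma adjusted p = 0.0167).

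Among the 5 IncPBF lungs, the interferon-inducible GTPases had the largest median SD of the role groups on the log2 scale (0.70), and this rested on IncPBF lung 1. Among IncPBF lungs 2 to 5 their median SD was 0.17, less than in the IFIT family (0.30) and in the OAS family with PKR (0.22), and among the sham lungs it was 0.095, the smallest of the role groups. The GTPases comprise guanylate-binding proteins (Gbp) and immunity-related GTPases (Igtp, Irgm1, Iigp1), which gather on vacuoles that hold intracellular microbes and are strongly induced by interferon gamma. Averaged over the 6 genes, log2(FPKM + 0.1) was 1.36 above the sham mean in IncPBF lung 1, and the difference from that mean was -0.32, -0.33, -0.36 and -0.10 in IncPBF lungs 2 to 5. Igtp was at 29.9, 4.67, 4.79, 4.5 and 6.15 FPKM in the IncPBF lungs and at 5.73, 5.62, 6.15, 5.61 and 6.39 FPKM in the sham lungs. The level in IncPBF lung 1 was 5.94 times the mean of the other IncPBF lungs, and the SD of the IncPBF lungs on the log2 scale, 1.16, was the largest of all members. Of the stretches of 50 bases in Igtp, 11.8% also occur in Irgm2, whose exons overlap it, so part of its fragments is uncertain. Zbp1 (0.88) and Gbp2 (0.83) had the next largest SD in the IncPBF group. Irgm1, a regulator of this family, was at 13.95, 4.8, 4.58, 4.54 and 5.02 FPKM in the IncPBF lungs and at 4.77, 5.16, 5.61, 4.89 and 5.06 FPKM in the sham lungs, so the other 9 lungs lay between 4.54 and 5.61 FPKM. Neither Igtp (log2 difference 0.28 ± 0.44, limma adjusted p = 0.667) nor Irgm1 (0.21 ± 0.27, adjusted p = 0.592) passed the test with all lungs. In the other 9 lungs the differences were -0.24 (adjusted p = 0.088) and -0.10 (adjusted p = 0.283) in limma.

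The 3 guanylate-binding proteins lie next to each other on chromosome 3, from 142530342 (Gbp7) through Gbp3 to 142638008 (Gbp2), and showed another order of lungs. Gbp2 was at 33.2, 8.91, 8.35, 9.05 and 11.5 FPKM in the IncPBF lungs and at 15.6, 15.7, 13.6, 15.4 and 16.8 FPKM in the sham lungs. IncPBF lung 1 lay above all sham lungs and IncPBF lungs 2 to 5 lay below all of them. Gbp3 was at 16.8, 5.43, 5.35, 5.27 and 7.42 FPKM in the IncPBF lungs and at 8.14, 8.44, 9.24, 8.86 and 7.72 FPKM in the sham lungs, with the same order. Gbp7 was at 13.3, 5.47, 5.32, 5.74 and 5.16 FPKM in the IncPBF lungs and at 8.12, 8.03, 7.7, 7.07 and 8.28 FPKM in the sham lungs, again in that order. With all lungs none of these 3 genes passed the test (limma adjusted p of 0.393 to 0.553). Without IncPBF lung 1 the log2 differences were -0.71 for Gbp2, -0.54 for Gbp3 and -0.52 for Gbp7, with limma adjusted p of 0.000682, 0.00462 and 0.000405. In Gbp7, 11.4% of the exon bases overlap the gene model Gm43802 on the same strand.

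Iigp1 was the 1 member called higher. It was at 38.3, 17.5, 18.5, 15.3 and 19.3 FPKM in the IncPBF lungs and at 11.7, 14.03, 13.6, 12.9 and 12.7 FPKM in the sham lungs. All 5 IncPBF lungs lay above all sham lungs, as was the case for 1 of 37 members (2.70%) and 12% of all genes tested, and IncPBF lung 1 was about 2.17 times the mean of the other 4. The mean was 21.8 ± 9.34 FPKM against 12.98 ± 0.897 FPKM (SD, n = 5), the log2 difference 0.66 ± 0.20 and the limma adjusted p 0.0272. Without IncPBF lung 1 the log2 difference was 0.44 (limma adjusted p = 0.00297), so the other 4 IncPBF lungs alone were higher than the sham lungs. This direction was opposite to that of Gbp2, Gbp3 and Gbp7 in the same 4 lungs.

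**Figure D4:**
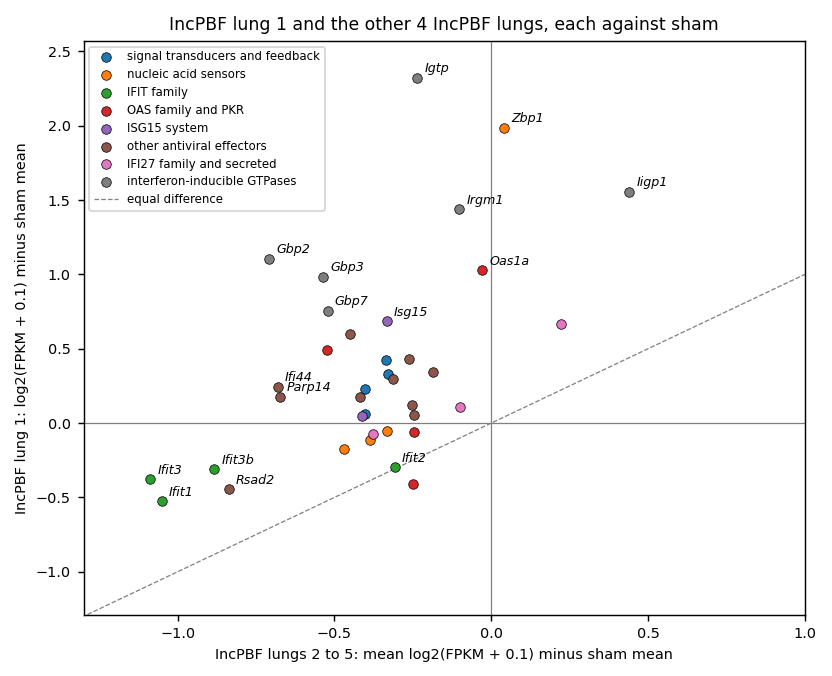
Each point is 1 of the 37 tested members, coloured by role, at the log2(FPKM + 0.1) difference from the sham mean of IncPBF lungs 2 to 5 (horizontal axis, mean) and of IncPBF lung 1 (vertical axis); the dashed line marks equal differences. Most points lie above the line, Igtp, Zbp1, Irgm1 and Iigp1 lie highest, and the 4 IFIT genes and Rsad2 lie below 0 on both axes.

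IncPBF lung 1 was the highest of the 5 IncPBF lungs in 34 of the 37 members (91.9%, against 16.2% of all genes tested). It was above all 5 sham lungs in 20 members (54.1%, against 26.4% of all genes). It was at least 1.5 times the mean of the other 4 IncPBF lungs in 20 members (54.1%, against 3.02% of all genes), with a median ratio of 1.53 over the members and 0.99 over all genes. IncPBF lungs 2 to 5 lay below all sham lungs in 21 members (56.8%, against 12.4% of all genes) and above them in 1 member (13.5% of all genes). Among themselves these 4 lungs had a median SD of 0.15 on the log2 scale over the members, near that of the sham lungs (0.14) and of all genes tested (0.13 in the same 4 lungs). With IncPBF lung 1 the median SD over the members was 0.34. Some lists of immune cell markers stood highest in IncPBF lung 1, and others did not. Summed FPKM of the 5 leukocyte genes was 94.5 in IncPBF lung 1, 69.0 to 80.3 in the other IncPBF lungs and between 68.0 and 81.8 in sham, and all 5 genes were highest in it among the IncPBF lungs. The 9 T and NK cell genes summed to 15.7 FPKM in IncPBF lung 1, 9.66 to 11.0 FPKM in the other IncPBF lungs and between 10.9 and 13.8 FPKM in sham, but only 3 of the 7 genes tested were highest in IncPBF lung 1 among the IncPBF lungs and 1, Gzma, was above all sham lungs. Gzma had 124 fragments in IncPBF lung 1, 20 to 25 in the other IncPBF lungs and between 10 and 61 in sham. The 8 monocyte and macrophage genes summed to 104 FPKM in IncPBF lung 1, 73.0 to 86.8 FPKM in the other IncPBF lungs and between 74.1 and 92.0 FPKM in sham, with 6 of the 8 genes highest in that lung among the IncPBF lungs. The sums of the conventional dendritic cell genes (16.9 FPKM) and of the plasmacytoid dendritic cell genes (11.3 FPKM) were instead the lowest of the IncPBF lungs in lung 1. Only 2 of the 6 plasmacytoid dendritic cell genes passed the filter, so that sum rests mostly on those 2. Alveolar macrophage genes summed to 168 FPKM in it, within the 107 to 452 FPKM of the other IncPBF lungs, and 0 of 8 were highest there. Neutrophil genes summed to 69.6 FPKM, where the other IncPBF lungs had 37.7 to 73.7 FPKM and sham 28.2 to 59.1 FPKM. B cell genes summed to 72.6 FPKM, within the sham range of 65.6 to 90.9 FPKM. No gene of these lists was at 0 in all lungs, and the part of these cells in the level of the members was not tested.

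Markers of several cell types differed between the groups as well. Of all genes tested, 16.2% were lower and 16.1% were higher with all lungs. IncPBF lungs 2 to 5 also had high Xist, unlike every sham lung. With the Xist level as a covariate, most of the marker calls given below were lost, as were most calls over all genes tested. The group difference in that fit rests on IncPBF lung 1 against the sham lungs. It therefore cannot give the part of the operation or of the Xist level in these calls. All 5 genes of alveolar type 1 cells were called lower (4 without IncPBF lung 1), with sums of 864 to 904 FPKM against 1094 to 1428 FPKM in sham. Of the 6 endothelial genes 3 were lower, as were 3 of 5 alveolar type 2 genes. Of the conventional dendritic cell genes 2 of 4 tested were lower, with sums over the 6 listed genes of 16.9 to 20.3 FPKM against 26.9 to 32.8 FPKM. Of the plasmacytoid dendritic cell genes 1 of 2 tested was lower, with sums over the 6 listed genes of 11.3 to 13.1 FPKM against 13.5 to 17.3 FPKM. The other listed genes lay under the filter, so these sums rest mostly on the 2 tested genes. Whether those 2 genes come from these cells alone was not tested. Of the 8 alveolar macrophage genes 3 were lower, namely Ear1 (log2 difference -0.81 ± 0.20, limma adjusted p = 0.0112), Krt79 (-0.91 ± 0.27, adjusted p = 0.0224) and Car4 (-0.45 ± 0.12, adjusted p = 0.0134), and 7 had a difference below 0. Of the 8 genes of monocytes and interstitial macrophages, 2 were higher and 2 lower. The higher ones were Ccr2, the chemokine receptor of circulating monocytes (0.65 ± 0.17, limma adjusted p = 0.0131), and Plac8 (1.01 ± 0.20, adjusted p = 0.0036). The lower ones were C1qb (-0.35 ± 0.11, limma adjusted p = 0.0289) and C1qc (-0.38 ± 0.12, adjusted p = 0.0299), which encode chains of complement C1q. Of the 5 leukocyte genes 1 was higher, Cd52 (0.32 ± 0.11, limma adjusted p = 0.0421), and without IncPBF lung 1 its adjusted p was 0.0952. The part of these cell types in the level of the members was not tested.

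Upstream of the members, the genes of the pathway were read from 4 lists. Of 21 interferon ligand genes in the table, 19 had no fragment in any lung, among them Ifnb1 and all listed alpha interferons, and a count of 0 allows up to 3 fragments, or 0.144 to 0.174 FPKM for a gene of 1 kb. Ifnz had at most 3 fragments in a lung. Ifng, the gene of interferon gamma, had 6, 2, 2, 0 and 0 fragments in IncPBF lungs 1 to 5 and 0 in every sham lung. Only IncPBF lung 1 was above 3 fragments, and no fold is given at this depth.

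Of the 6 receptor genes, 3 were lower and 0 higher, where 16.2% of all genes tested were lower and 16.1% were higher. Ifngr1, the chain that binds interferon gamma, was at 50.8, 53.6, 50.04, 51.2 and 58.95 FPKM in the IncPBF lungs and at 97.2, 99.4, 76.96, 89.4 and 101 FPKM in the sham lungs. The groups lay far apart and IncPBF lung 1 was like the other IncPBF lungs. The mean was 52.9 ± 3.62 FPKM against 92.8 ± 9.94 FPKM (SD, n = 5), the log2 difference -0.80 ± 0.08 and the limma adjusted p 5.33e-05. With the Xist level as a covariate the difference was -0.83 (limma adjusted p = 0.0131). Ifngr2, the partner chain, was at 21.7 ± 1.5 FPKM against 19.99 ± 1.42 FPKM (log2 difference 0.12 ± 0.07, limma adjusted p = 0.2). Ifnar2 was at 14.6, 14.3, 14.8, 13.9 and 13.8 FPKM in the IncPBF lungs and at 16.5, 16.01, 15.7, 16.7 and 16.4 FPKM in the sham lungs, a small difference without overlap (log2 difference -0.18 ± 0.04, limma adjusted p = 0.00721). With an equal total per lung the adjusted p of Ifnar2 in limma was 0.0969, and with limma-voom it was 0.142. Ifnar1 was at 20.9 ± 1.52 FPKM against 21.2 ± 1.23 FPKM (log2 difference -0.02 ± 0.06, limma adjusted p = 0.864). Ifnlr1, the receptor chain of the lambda interferons, was lower, at 2.6 ± 0.239 FPKM against 3.63 ± 0.538 FPKM (log2 difference -0.46 ± 0.11, limma adjusted p = 0.00869).

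Of 10 receptor kinases and factors, 3 were lower and 1 was higher, where 16.2% of all genes tested were lower and 16.1% were higher. Socs1, a feedback inhibitor of the receptor kinases, was at 3.54, 4.00, 4.62, 3.51 and 2.4 FPKM in the IncPBF lungs and at 1.07, 2.21, 2.05, 2.01 and 0.928 FPKM in the sham lungs. All IncPBF lungs were above all sham lungs, with a log2 difference of 1.13 ± 0.25 (limma adjusted p = 0.00605). The lower genes were Irf2, a factor that competes for interferon response elements (log2 difference -0.36 ± 0.06, limma adjusted p = 0.000742), and the kinases Jak1 (-0.32 ± 0.08, adjusted p = 0.0129) and Jak2 (-0.18 ± 0.06, adjusted p = 0.0444). The call of Jak2 was lost without any 1 of 8 lungs (limma adjusted p of 0.0518 to 0.0965), the exceptions being IncPBF lung 1 and sham lung 3. It was also lost with an equal total per lung (log2 difference -0.10, limma adjusted p = 0.209), limma-voom (-0.10, adjusted p = 0.217), quantile normalization, no filter and no trend (limma adjusted p of 0.0621 to 0.0733). Of 12 adaptors and receptors of nucleic acid sensing, 1 was higher, Tmem173, which encodes STING (5.83 ± 0.265 FPKM against 4.46 ± 0.601 FPKM, log2 difference 0.39 ± 0.09, limma adjusted p = 0.00835), and 0 were lower.

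A further list of 65 interferon-induced genes outside the 40 had 54 that were tested, of which 17 were lower (31.5%, against 16.2% of all genes) and 1 was higher (against 16.1%). With IncPBF lung 1 left out, 26 were lower (48.1%, against 13.9% of all genes) and 0 higher. The 5 lower genes with the smallest p were Slfn5 (log2 difference -0.53 ± 0.08), Shisa5 (-0.36 ± 0.06), Ly6e (-0.47 ± 0.08), Lgals9 (-0.33 ± 0.06) and Tor3a (-0.48 ± 0.09), with limma adjusted p of 0.00087 to 0.00286. Pnpt1, a mitochondrial exoribonuclease, was the 1 higher gene (0.24 ± 0.08, limma adjusted p = 0.0363). Its call was lost without IncPBF lung 1, 4 or 5 or sham lung 1, 2 or 5 (limma adjusted p of 0.0577 to 0.0889), and without a filter on low values (0.0669). Of the pathway genes named here as called with all lungs, Ifngr1 was the 1 gene also called under the Xist covariate. Among the IncPBF lungs, lung 1 was the highest in 42 of the 54 genes (against 16.2% of all genes tested). It was at least 1.5 times the mean of the others in 19 (against 3.02% of all genes). Chosen after the values were seen, the genes with the largest such ratios included Nlrc5, a master regulator of MHC class I genes, at 4.1 FPKM in IncPBF lung 1 and 0.307 to 0.446 FPKM in the other IncPBF lungs. They also included the GTPase genes Tgtp2 (8.8 times the mean of the other IncPBF lungs), Irgm2 (4.68 times) and Gbp4 (3.57 times). Tap1, the peptide transporter of antigen presentation (3.16 times), and Psmb9, a subunit of the immunoproteasome (2.7 times), were high in the same lung. IncPBF lung 1 was also the 1 IncPBF lung with low Xist, which all sham lungs had as well. Against the other IncPBF lungs, the part of the Xist level in these ratios cannot be told apart from that of this single lung.

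The stability of the 10 calls differed. Ifit1, Ifit3, Ifit3b, Rsad2 and Ifih1 were called lower under every alternative tried, each lung left out in turn included, with 1 exception, the Xist covariate. Under that covariate their log2 differences were -0.53, -0.37, -0.30, -0.44 and -0.16, with limma adjusted p of 0.148 to 0.624. The call of Ifit2 was lost without IncPBF lung 3 or 4 or sham lung 1, 2 or 5 (limma adjusted p of 0.0573 to 0.0678). That of Ddx58 was lost without IncPBF lung 2, 3 or 4 or sham lung 1 or 5 (adjusted p of 0.0519 to 0.0693 in limma). That of Lgals3bp was lost without IncPBF lung 2, 3, 4 or 5 or sham lung 2 or 5 (limma adjusted p of 0.0501 to 0.0544). Parp14 kept its call when IncPBF lung 1 or sham lung 4 was left out and lost it without any of the other 8 lungs (limma adjusted p of 0.0515 to 0.0830). Iigp1 was lost without sham lung 1 (limma adjusted p = 0.0610) or sham lung 5 (0.0508). An equal total per lung ended the calls of Ddx58, Lgals3bp and Parp14, limma-voom that of Ddx58, and testing without a filter those of Ifit2, Ddx58, Parp14 and Iigp1 (limma adjusted p of 0.0525 to 0.0801). Calls were gained as well without sham lung 2, where Dhx58 (log2 difference -0.42, limma adjusted p = 0.0349) and Eif2ak2 (-0.26, adjusted p = 0.0234) were lower. Nothing in the labels says that the lungs came from separate litters, so the p-values measure the spread between these lungs.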

How the data were processed

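Total RNA of P14 lungs, 5 IncPBF and 5 sham, was sequenced by the authors from NEBNext libraries. They deposited 1 table of FPKM with gene lengths. The submitters' processing notes name Bowtie 0.12.2; the counting software and its use of strand are not given in the sources used here. Coordinates were the same as in GENCODE M21 (GRCm38) for 98.3% of 54409 shared genes. In the table the IncPBF columns go by an abbreviation that the titles lack; they were taken as the IncPBF group because the remaining 5 columns are named sham.

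FPKM times gene length gave whole fragments for 100% of values (tolerance 0.02), so the depth was recovered. Relative to the total on genes, the authors' divisor was 1.02 to 1.07 (IncPBF) and 0.958 to 1.03 (sham), and an equal total per lung is among the alternatives. The limit given for ligand genes without fragments covers counting error only, and the SD and SE values measure the spread between lungs. The test was limma 3.58.1 in R 4.3.3 (lmFit, eBayes with trend) on log2(FPKM + 0.1) for the 15388 genes whose mean reached 0.5 FPKM, with Benjamini-Hochberg adjustment over all genes tested. Single genes under the filter were compared by exact permutation. The script was first tested on simulated data with known changes. Shared sequence was measured as stretches of 50 bases in GENCODE M21 transcripts, and motifs were searched with Python 3.11.15 in the RefSeq windows.

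The members and lists were chosen with earlier results of these data known. Named with values in every lung were members past the adjusted threshold, members whose groups do not overlap and the 3 members with the largest SD in each group. Of each pathway list up to 5 called genes were named, with Ifnar1, Ifnar2, Ifngr1, Ifngr2 and any ligand above 3 fragments; 1 further gene is not reported here. Other genes with values were chosen after their values were seen. The alternatives were the pseudocount (1, 0.01), the filter (1 FPKM, none), the scaling, limma-voom on the recovered fragments, no trend, a replicate block, an Xist covariate and each lung left out. Counts of IncPBF lungs 2 to 5 and of IncPBF lung 1 alone against the sham range were added after the data were seen.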

Additional observations from a re-analysis of the deposited data

Results flagged for a closer look

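In groups of 5 lungs, a lung was set aside for a closer look when its gap to the nearest other lung, divided by the range of the group, was above 0.71 (Dixon's 95% critical value). Of 80 groups checked (40 members in 2 groups), 23 met this, where chance gives about 1 in 20, or 4, for independent groups. The share of all genes tested that met this rule is not given, so the count alone does not set the members apart from other genes. In 21 of the 23 the lung was IncPBF lung 1, in each case the highest of its group. The ratio was 0.948 for Irgm1, 0.935 for Igtp, 0.929 for Gbp7, 0.874 for Gbp2, 0.829 for Iigp1 and 0.814 for Gbp3, which are all 6 interferon-inducible GTPases. Among the sensors and transducers it was 0.921 for Zbp1, 0.83 for Irf9, 0.824 for Stat2 and 0.753 for Usp18. In the OAS family it was 0.745 for Oasl2, 0.732 for Oas1a and 0.725 for Oas2. Among the effectors and other genes it was 0.87 for Bst2, 0.858 for Herc6, 0.839 for Lgals3bp, 0.801 for Parp14, 0.772 for Cmpk2, 0.769 for Xaf1, 0.751 for Rtp4 and 0.726 for Parp9. The other 2 were sham lung 3, the highest sham lung for Mx2 (0.766) and for Oasl2 (0.712). The genes share their lungs, so these ratios are not independent of each other. No IFIT gene met the criterion in either group.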

How the results depend on the processing

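The 9 lower and 1 higher members were 6 to 11 lower and 0 or 1 higher under other pseudocounts, filters, scalings, limma-voom and no trend. Without a filter, 0 members were higher and 6 lower. The replicate numbers did not pair the lungs (correlations of same-numbered lungs -0.07 to 0.09), and the replicate block gave 1 higher and 10 lower. With each lung left out, 0 to 2 members were higher (0 without sham lung 1 or 5, 2 without IncPBF lung 3, Iigp1 and Ifi27l2a) and 5 to 24 lower (5 without IncPBF lung 3 or 4 or sham lung 5, 24 without IncPBF lung 1). Members without overlap rose from 4 to 21 lower without IncPBF lung 1, and 20 were above the sham range in IncPBF lung 1 alone, an alternative added after the data were seen. Allowing 1 mismatch in the first promoter motif, 27 of 29 windows matched, and 38.9% of all windows.

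Pathway genes were 3 higher and 23 lower. An equal total per lung gave 7 higher and 16 lower and limma-voom 6 and 18; both moved the median of all genes to 0.09 on the log2 scale, from 0.01. Without IncPBF lung 1 the lower pathway genes numbered 34, and 17 to 23 with any other lung left out.

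With the Xist covariate, 7 members were higher and 0 lower, and 16 pathway genes higher and 1 lower. Log2 differences then changed sign for Gbp2 (1.09), Gbp3 (0.95), Gbp7 (0.74), Isg15 (0.68), Rtp4 (0.55), Oasl2 (0.46), Irf9 (0.40), Cmpk2 (0.40), Bst2 (0.33), Stat2 (0.31), Xaf1 (0.27), Usp18 (0.22), Ifi44 (0.22), Parp14 (0.17), Trim30a (0.16), Ifi35 (0.11), Ifi27 (0.11), Parp9 (0.040), Irf7 (0.031) and Herc6 (0.032). Under an equal total and under limma-voom, Bst2 was at 0.00073 and 0.0014, and Ifi27 at 0.022 in both. With each lung left out, the log2 difference ran from -0.24 to 0.44 for Igtp, from -0.10 to 0.30 for Irgm1 and from -0.030 to 0.29 for Oas1a; it was negative without IncPBF lung 1 in all 3 genes, and for Oas1a also without sham lung 2 (-0.013). Apart from the lungs named, the cause was not tested. Depth limited the ligand genes.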
